A study of Mus musculus with 24 samples.

Results

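The hippocampal transcriptome of Tsc1-Cre+ mice given rapamycin daily from day 4 and taken on day 13 (Tsc1-Cre+-Rap 4, 4 mice) was compared with that of untreated Tsc1-Cre+ mice taken on day 4, the day on which treatment began (Tsc1-Cre+ day 4, 4 mice). These 8 of the 24 mice of the series were chosen by their group label alone. The comparison asks how far hippocampi under the drug had moved from the state in which treatment started. It was read together with 4 Tsc1-Cre- control mice, and what differed from them on day 4 was taken as already changed.

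All 24 mice were Tsc1 fl/fl adults of both sexes, 16 to 22 weeks old, and all received tamoxifen on 4 days, the controls included. Mice of the Cre+ groups also carried the Camk2a-CreERT2 transgene, in which Camk2a regulatory sequence drives a tamoxifen-dependent Cre recombinase, so that Tsc1 is removed from CAMK2A-expressing neurons and stays intact in glia, vessels and other cells of the tissue. Rapamycin was given at 10 mg/kg. Control RNA was taken on day 8. Day 4 and control mice thus differ in time after tamoxifen as well as in genotype, and these cannot be told apart in what is counted as changed on day 4. By its group labels the series of 24 mice held no vehicle-treated group and no rapamycin-treated group of mice without Cre. The rapamycin and day 4 groups differ by the drug and also by 9 days of time after deletion, which cannot be told apart in this comparison. As each library held a piece of whole tissue, fewer cells of a type and less RNA per cell cannot be told apart either.

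TSC1 and TSC2 form a complex that holds the small GTPase RHEB inactive and thereby restrains mTORC1, the kinase complex that drives protein synthesis, ribosome production, sterol and nucleotide synthesis and that restrains lysosome production. Without TSC1, mTORC1 signals continuously, neurons enlarge and, in mice and in people with tuberous sclerosis, seizures develop. Rapamycin binds FKBP12, and the pair inhibits mTORC1 in every cell type it reaches, whether or not that cell has lost Tsc1.

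Total counts were 56239855 to 60914278 per mouse on day 4 and 28208561 to 54924199 under rapamycin, without overlap (two-sided exact permutation test over 70 arrangements, p = 0.0286, the smallest that 4 mice against 4 allow). Mitochondrial transcripts took 3.88% to 5.43% of the counts on day 4 and 4.53% to 6.12% under rapamycin (exact permutation p = 0.143). Xist was high in 1 of the 4 day 4 mice and in 2 of the 4 rapamycin mice. It was at 3.15 CPM in control mouse A and at 1061, 640 and 1080 CPM in controls B to D. The mix of sexes thus differed between control and day 4. Markers of choroid plexus and ependyma, summed over 15 genes, reached 199 to 1738 CPM (read counts relative to the library's size, after TMM scaling) on day 4 and 177 to 902 under rapamycin. Of the day 4 mice 3 lay at 1193 to 1738 CPM, and of the rapamycin mice 3 lay at 177 to 252 CPM, with mouse C the highest. The median log2 fold change of these 15 genes was -1.50, with 13 negative, and 1 was called. Of the marker lists for the expected cells of hippocampus, none had a member at 0 in both groups.

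The deletion itself was present in both groups. Tsc1 measured 78.2, 79.7, 82.0 and 75.9 CPM in day 4 mice A to D and 66.3, 66.4, 67.8 and 69.0 CPM in the rapamycin mice, against a control mean of 106. The rapamycin mice thus lay below the day 4 mice without overlap, by a log2 fold change of -0.22 (SE 0.0435, adjusted p = 0.00914, edgeR), a difference under the fold threshold used here. Esr1, whose sequence is part of the CreERT2 transgene, was at 29.8 ± 1.93 CPM under rapamycin and 29.5 ± 2.10 on day 4 (SD, n = 4 each), far above the control mean of 3.16. Tsc2 (adjusted p = 0.20) and Mtor (adjusted p = 0.939) did not pass the test.

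Of 25186 genes tested, 492 (1.95%) were differentially expressed between rapamycin and day 4, where a gene was called if its adjusted p was below 0.05 and its log2 fold change exceeded 0.5 in size. Of these, 250 were higher under rapamycin (0.993%) and 242 lower (0.961%). With Ttr, which the choroid plexus expresses strongly, as a covariate 290 genes were called. For scale, untreated mice over the same span, day 13 against day 4, had 1891 genes higher (7.56% of 25026) and 1801 lower (7.2%). Protein-coding genes, 15788 of those tested, made up 109 of the rises and 202 of the falls. Long noncoding transcripts, 6114 of those tested, made up 105 of the rises and 19 of the falls. In a fit with offsets for the GC content of the transcripts, 72 protein-coding genes were called higher and 91 lower. That fit called 32 long noncoding transcripts higher and 19 lower.

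The early changes were the 172 genes that differed between day 4 and control (0.68% of 25308), 86 in each direction. Each was classed by its calls in rapamycin against day 4 and rapamycin against control (0.372% of 25006 genes called higher and 1.04% lower). An early change was counted as undone if rapamycin moved it back from day 4 and it no longer differed from control, and as kept if it still differed from control and had not moved from day 4. It was counted as grown if it moved further in the early direction, and as overshot if it moved back and passed control on the other side. By this rule 44 early changes were undone (25.6%), 36 were kept (20.9%), 1 was partly undone, 4 were grown and none overshot. The other 87 (50.6%) were called in neither comparison and were left undecided. Some of these moved back from day 4 at an adjusted p under 0.05 but below the fold threshold, such as Ttyh3 (log2 fold change -0.47, adjusted p = 0.00177). Olfr414 was not tested between rapamycin and day 4, and Pklr and mt-Tm were not tested between rapamycin and control. The count of 0 overshot genes was the same at an unadjusted p under 0.05 with the same fold threshold and in DESeq2, but 1 gene overshot without rapamycin mouse B. With no fold minimum there were 479 undone, 125 kept and 19 overshot of 1054 early changes. Since the same day 4 mice enter both calls, a day 4 value that is extreme by chance can look undone, and these counts are descriptions. With 1 spread estimated over all 24 mice the test called 29 early changes, of which 7 were undone and 13 kept, and without day 4 mouse B it called 84, with 27 undone and 17 kept. With the Xist level as a covariate 107 early changes were called, of which 42 were undone and 19 kept.

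**Figure D1:**
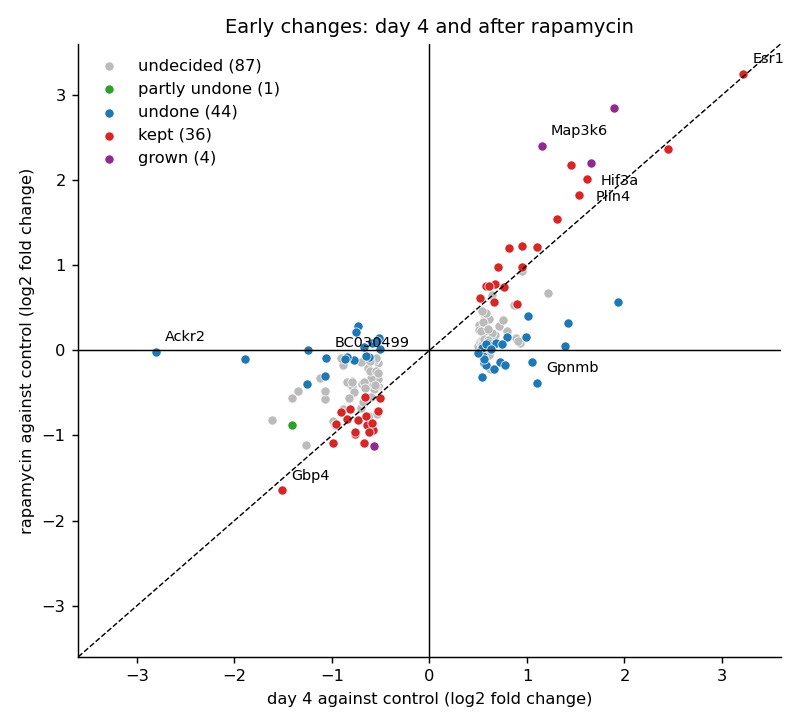
The 172 early changes, each a dot, with the log2 fold change of day 4 against control on the x axis and of rapamycin against control on the y axis; colours give the class. By the rule of the classes, undone genes lie along the horizontal line at 0 and kept genes near the dashed diagonal of equal values. The grown genes Map3k6 and Hif3a lie above the diagonal.

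Among the undone changes, 25 had been higher on day 4 and 19 lower. Gpnmb, a transmembrane glycoprotein of lysosomes and phagocytes, fell furthest under rapamycin among the protein-coding undone rises with a mean of at least 1 CPM over both groups. It measured 11.7, 14.3, 8.33 and 18.4 CPM in day 4 mice A to D and 4.58, 6.35, 3.81 and 3.96 CPM under rapamycin. Every rapamycin mouse lay below every day 4 mouse and inside or below the control range of 5.51 to 6.67 CPM. The log2 fold change was -1.48 (SE 0.217, adjusted p = 0.0023), and against control -0.38 (adjusted p = 0.204). In untreated mice the gene went on rising, to a mean of 66.5 CPM on day 13.

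Serpinb8, an intracellular serine protease inhibitor, behaved alike. This gene was chosen after its values were seen. Its level was 5.68, 8.86, 6.52 and 8.59 CPM on day 4 and 3.54, 4.36, 3.77 and 4.51 CPM under rapamycin, without overlap and against a control mean of 4.50 (log2 fold change -0.86, SE 0.148, adjusted p = 0.00476). Untreated mice reached 12.4 CPM on day 13. Plekhg4, a guanine nucleotide exchange factor for small GTPases, fell by 1.19 on the log2 scale (adjusted p = 0.00561), from a mean of 3.89 to 1.67 CPM with a control mean of 1.86. Slc9a5, a sodium-hydrogen exchanger of neurons, fell by 0.64 (adjusted p = 0.00303), from 16.5 to 10.5 CPM against 9.49 in control. Sspo, which encodes the secreted protein SCO-spondin, fell by 0.95 (adjusted p = 0.00303), from 7.55 to 3.9 CPM against 4.42 in control. It was at 3.89 CPM on day 6 without the drug, and was no early change with GC content modelled.

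On the side of genes that had been lower on day 4, the neighbouring genes BC030499 and Spag5 recovered together. BC030499 (chr11:78290841-78296805, plus strand, GRCm38) measured 7.24, 6.81, 8.62 and 5.22 CPM on day 4 and 14.7, 12.1, 11.7 and 15.9 CPM under rapamycin, where the controls spanned 12.7 to 15.6. Spag5 (chr11:78301529-78322457, plus strand), which encodes a protein of the mitotic spindle, measured 7.84, 7.28, 9.34 and 6.25 CPM on day 4 and 12.7, 14.2, 10.8 and 14.3 CPM under rapamycin, where the controls spanned 12.9 to 15.2. For both genes the groups did not overlap. The log2 fold changes were 0.97 (SE 0.142, adjusted p = 0.0022) and 0.77 (SE 0.122, adjusted p = 0.00315). Without the drug both fell further, to 2.85 and 4.73 CPM on day 13. BC030499 is overlapped by a transcript on the opposite strand, and the strand setting of the counting is not given in the sources used here.

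The largest undone fall was Ackr2, a decoy receptor that takes up inflammatory chemokines, chosen after its values were seen. It measured 0.106, 0.249, 0.322 and 0.30 CPM on day 4 and 2.19, 1.46, 1.57 and 1.69 CPM under rapamycin, near the controls at 2.41, 1.28, 1.80 and 1.47. The log2 fold change was 2.79 (SE 0.282, adjusted p = 0.000435). This gene also came back without the drug, as did 6 others of the 44 undone genes that were called back towards control on day 13 against day 4, Gng7 among them, while 8, among them Gpnmb and Spag5, were called further away. Its untreated means were 0.601 CPM on day 6, 1.29 on day 8 and 1.82 on day 13. Iigp1, an interferon-induced GTPase, returned from 1.92 to 3.01 CPM with a control mean of 3.29 (log2 fold change 0.66, adjusted p = 0.0175, and 0.0744 once GC content was modelled).

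The undone rises also held 3 genes of synapses, chosen after their values were seen. Gng7, a G protein gamma subunit of striatal and hippocampal neurons, measured 120, 119, 96.9 and 106 CPM on day 4 and 62.8, 74.8, 44.0 and 79.3 CPM under rapamycin, without overlap and around the control mean of 74.2 (log2 fold change -0.75, SE 0.138, adjusted p = 0.00632). Shank1, a scaffold of the postsynaptic density, measured 519, 517, 459 and 486 CPM on day 4 and 285, 407, 236 and 377 CPM under rapamycin, without overlap and against a control mean of 308. Its log2 fold change of -0.59 (adjusted p = 0.0132) was -0.41 once GC content was modelled (adjusted p = 0.109). Grik5, a kainate receptor subunit, had means of 181 CPM on day 4, 118 under rapamycin and 124 in control (log2 fold change -0.61, adjusted p = 0.00104), and was no early change with GC content modelled. Untreated mice also returned for Gng7, to 69.9 CPM on day 8 and 74.2 CPM on day 13 (day 13 against day 4, log2 fold change -0.56, adjusted p = 0.0396). Shank1 was at 308 CPM on day 8 and 327 CPM on day 13 without the drug (adjusted p = 0.0622 against day 4), while Grik5 was at 174 CPM on day 13. Camk2a, which marks the neurons that lost Tsc1, was not an early change. It measured 2619, 2465, 2301 and 2193 CPM on day 4 and 1767, 2163, 1457 and 2062 CPM under rapamycin, without overlap but below the fold threshold (log2 fold change -0.35, adjusted p = 0.0363). The undone rises also held noncoding RNAs such as Gm26917, at 7394, 10268, 11746 and 10226 CPM on day 4 and 7207, 8352, 5133 and 5106 under rapamycin, where the groups overlapped. Its mean of 6449 CPM under rapamycin stayed above the control mean of 4901 (log2 fold change 0.41, adjusted p = 0.245). With GC content modelled it was undecided.

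The kept changes were 18 rises and 18 falls. The falls held the haemoglobin genes Hbb-bs and Hbb-bt, and the summed blood markers lay at 59.8 to 76.5 CPM in control. On day 4 these markers lay at 36.1 to 46.4 CPM, and under rapamycin at 40.3 to 53.4 CPM. The part of blood in the tissue in these falls was not tested. Esr1 had the largest of the kept rises. Plin4, a coat protein of lipid droplets, measured 51.7, 50.4, 78.8 and 31.9 CPM on day 4 and 64.4, 64.6, 92.4 and 57.0 CPM under rapamycin, with overlap between the groups. Its log2 fold change of 0.40 did not pass the test (adjusted p = 0.261), while that against control was 2.01 (adjusted p = 7.26e-05). Sgk1, a kinase induced by corticosteroids and chosen after its values were seen, measured 133, 131, 156 and 130 CPM on day 4 and 165, 165, 198 and 186 CPM under rapamycin, against 57.4 to 94.1 CPM in control. It lay higher under rapamycin without overlap but below the fold threshold (log2 fold change 0.39, SE 0.0738, adjusted p = 0.00722).

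Plin4 and Sgk1 were near the control level in untreated mice on day 6, at 18.1 and 82.7 CPM, and on day 8, at 17.3 and 83.9 CPM. On day 13, the day on which the rapamycin mice were taken, untreated mice were up again, at 46.7 CPM for Plin4 and 152 CPM for Sgk1, and neither gene passed the test against day 4 (adjusted p = 0.646 and 0.393). Itgad, an integrin of macrophages, had means of 0.361 CPM in control, 0.981 on day 4, 0.267 and 0.294 on days 6 and 8, 1.46 on day 13 and 1.6 under rapamycin. Sult1a1, a sulfotransferase chosen after its values were seen, had means of 6.35 CPM in control, 10.3 on day 4, 6.27 and 5.23 on days 6 and 8, 6.86 on day 13 and 12.4 under rapamycin. Several annotated transcripts on both strands overlap Itgad, so its reads are uncertain, and it was no early change with GC content modelled.

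The kept falls held Gbp4, an interferon-induced guanylate-binding protein, at 1.92, 0.978, 0.902 and 1.2 CPM on day 4 and 0.729, 1.41, 1.04 and 1.24 CPM under rapamycin, against 2.11 to 5.25 in control. The rapamycin mice overlapped the day 4 mice and lay below all 4 controls (log2 fold change against control -1.65, adjusted p = 0.00475). Gjb1, a gap junction protein of oligodendrocytes chosen after its values were seen, had means of 10.5 CPM in control, 7.0 on day 4 and 5.49 under rapamycin (against day 4, adjusted p = 0.122). The neuronal activity genes Arc and Npas4, the oligodendrocyte genes Opalin and Nkx2-2 and the MHC gene H2-K1 were in this class as well. Their log2 fold changes against control lay between -0.98 for Nkx2-2 and -0.56 for Arc. These genes were chosen after their values were seen. With GC content modelled Arc was undecided. The immediate early genes did not fall as a list, with 2 called lower and 1 higher on day 4. Their median against control was -0.10 on day 4 and -0.03 under rapamycin.

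The grown class held Map3k6, Hif3a, Fabp7 and Gm44850, the last a transcript antisense to Itgad. Map3k6, a stress-responsive kinase of the MAP kinase cascade, measured 2.66, 1.48, 2.82 and 2.40 CPM on day 4 and 5.13, 5.93, 7.14 and 3.94 CPM under rapamycin, without overlap and against 0.759 to 1.49 in control. Its log2 fold change was 1.25 (SE 0.208, adjusted p = 0.00383). Hif3a, a hypoxia-inducible factor subunit, measured 14.4, 15.1, 20.2 and 12.2 CPM on day 4 and 22.1, 22, 25.6 and 19.7 CPM under rapamycin. The groups overlapped at day 4 mouse C, and the log2 fold change was 0.54 (SE 0.13, adjusted p = 0.0204). Its call was kept in 4 of the 8 fits that each left out a mouse, with an adjusted p of up to 0.0676. Fabp7, a fatty acid-binding protein of astrocytes and radial glia, fell by 0.55 (adjusted p = 0.0349), from a mean of 9.42 to 6.33 CPM with 14.0 in control, and was called in 2 of those 8 fits.

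**Figure D2:**
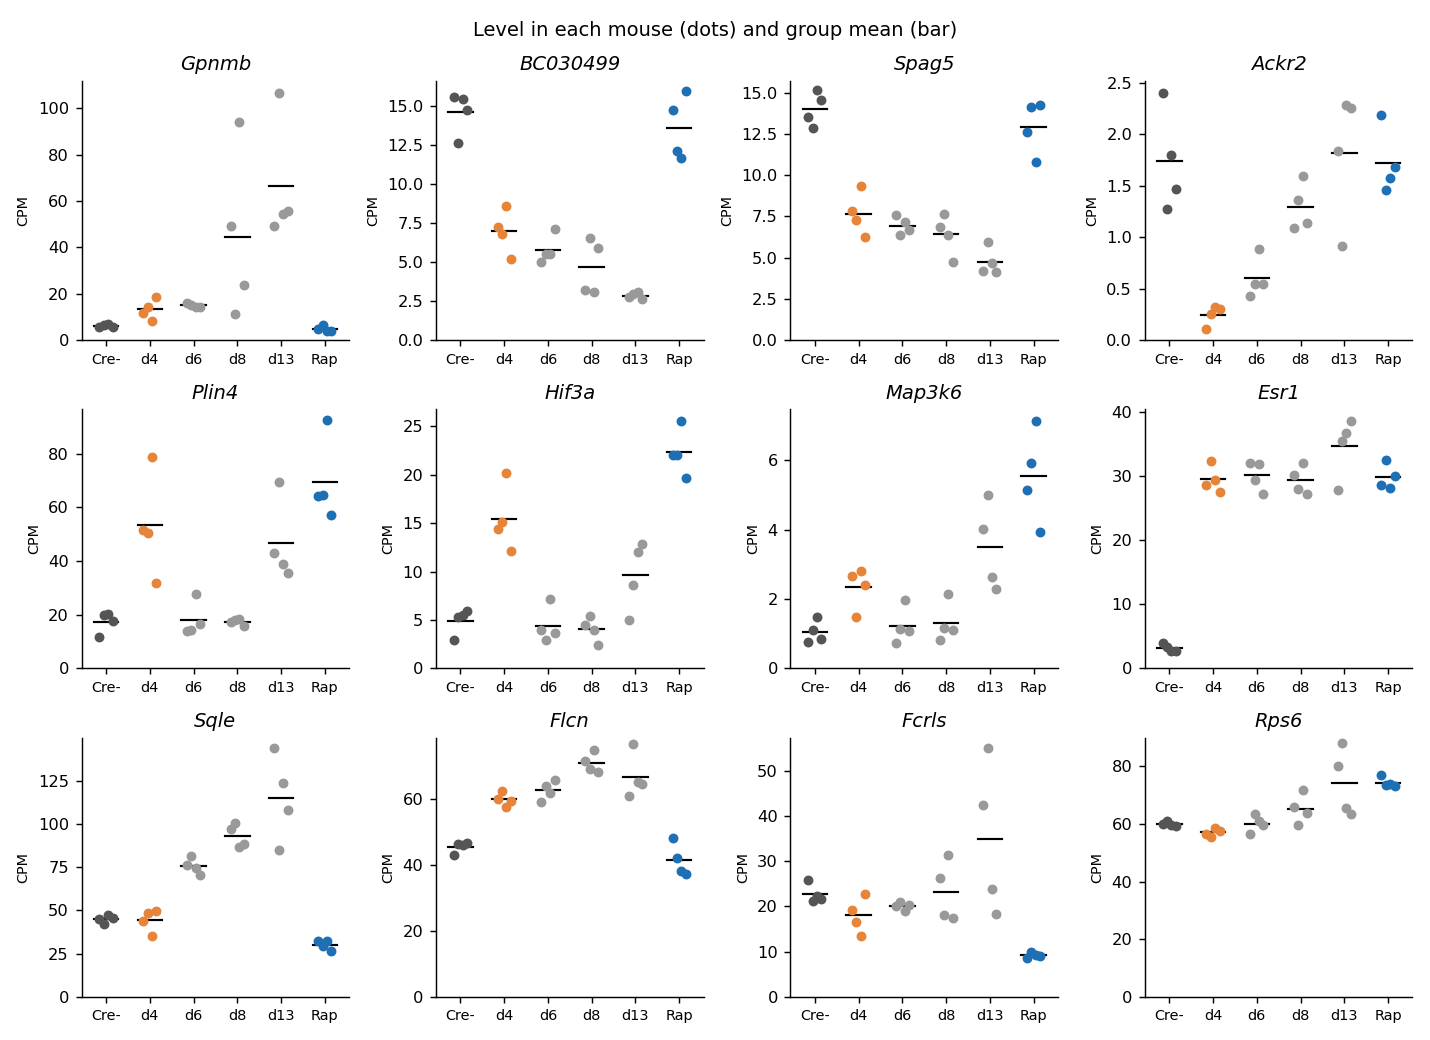
Level of 12 genes in CPM (y axis) in each of the 24 mice (dots) with the group mean (bar), for Tsc1-Cre- controls (Cre-), untreated Tsc1-Cre+ mice on day 4, 6, 8 and 13 (d4 to d13) and rapamycin mice (Rap). Gpnmb, BC030499, Spag5 and Ackr2 are back at the control level under rapamycin, Plin4 and Esr1 are as on day 4, Map3k6 and Hif3a are above it, and Sqle, Flcn and Fcrls are below it.

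The untreated course after day 4 took no part in the rule and is given as a description. The control, day 4 and rapamycin values did take part, so their medians follow from the classes. On the log2 scale relative to control, the median of the 25 undone rises was 0.67 on day 4, then 0.44, 0.26 and 0.50 on days 6, 8 and 13, and 0.01 under rapamycin. The 19 undone falls stood at -0.69, -0.52, -0.59 and -1.13, and at -0.02 under rapamycin. The 18 kept rises went from 0.90 on day 4 to 0.16 on day 6 and 0.06 on day 8, and stood at 0.52 on day 13 and 1.04 under rapamycin. The 18 kept falls stood at -0.68, -0.35, -0.39 and -0.49, and at -0.83 under rapamycin. The median of the kept rises was thus nearer to control on day 6 and day 8 than those of the undone genes. Of the 18 kept rises, Esr1 and Arsi, a sulfatase, were still called against control on day 6, with means of 30.1 and 10.0 CPM then and 29.4 and 9.81 CPM on day 8, against 3.16 and 1.63 CPM in control. Arsi was also high on day 4 (8.93 CPM), on day 13 (14.1 CPM) and under rapamycin (8.35 CPM). Arsi (chr18:60911780-60918561) lies near Camk2a (chr18:60925618-60988152), whose regulatory sequence drives the transgene. Whether the transgene contributes to the Arsi reads was not tested.

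**Figure D3:**
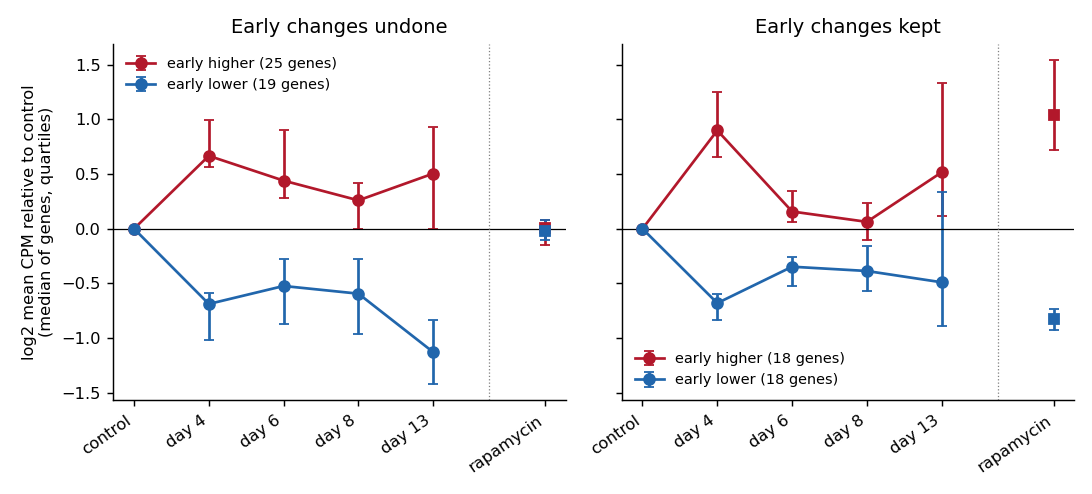
Median over genes (markers; bars give the quartiles) of the log2 mean CPM relative to control, y axis, for undone (left) and kept (right) early changes, in control, untreated mice by day and rapamycin mice (squares, x axis). As the day 4 and rapamycin values entered the rule, the undone medians near 0 under rapamycin follow from it. The kept rises drop to 0.16 and 0.06 on day 6 and day 8, and stand at 1.04 under rapamycin, also by the rule.

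Day 6 mice gave a view of the drug group that did not use the day 4 mice. Against day 6, 632 genes were higher under rapamycin (2.54% of 24862) and 502 lower (2.02%). Of the 25 undone rises 8 were called lower, and of the 19 undone falls 10 were called higher, among them BC030499 (log2 fold change 1.24, adjusted p = 2.29e-05), Spag5 (0.91, adjusted p = 4.32e-05) and Ackr2 (1.51, adjusted p = 0.000669). Gpnmb was lower by a log2 fold change of -1.65 (adjusted p = 3.87e-06). Slc9a5 and Sspo were not called there. Of the 36 kept changes, 21 were called against day 6 in the early direction, Plin4 with a log2 fold change of 1.95 (adjusted p = 2.17e-05) and Sgk1 with 1.12 (adjusted p = 1.71e-05). These comparisons share the rapamycin mice with the classes. Day 6 itself differed from control by 162 genes higher (0.647% of 25057) and 170 lower (0.678%).

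Most genes that moved between day 4 and rapamycin had not been called as early changes, which were 0.68% of 25308 genes. Of the 250 rises, 20 had been early falls and 3 early rises. Of the 242 falls, 25 had been early rises and 1 an early fall. A gene without a call could still have shifted below the fold threshold, as Flcn did (log2 fold change of day 4 against control 0.40, adjusted p = 0.000676, edgeR). Of the 250 rises 227, and of the 242 falls 216, had shown no call on day 4. Among these, 23 rises and 58 falls also differed from control in the same direction, so that the drug group had passed the starting state and the control level on the same side. The comparisons share the rapamycin mice. With GC content modelled, 12 of the 23 rises and 34 of the 58 falls were called in both.

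The largest rises without overlap began with Socs3, a feedback inhibitor of cytokine signalling. It measured 0.976, 0.569, 0.838 and 0.60 CPM on day 4 and 1.67, 1.80, 2.57 and 1.18 CPM under rapamycin, with a control mean of 0.959 (log2 fold change 1.29, SE 0.256, adjusted p = 0.00906). Pmaip1, a pro-apoptotic BCL2 family protein, rose from 1.21 to 1.40 CPM on day 4 to 2.29 to 2.78 CPM (log2 fold change 1.04, adjusted p = 0.00171). Il1r1, the receptor of interleukin 1, had the firmest of these rises, with 18.5, 14.6, 13.3 and 14.1 CPM on day 4 and 25, 27.3, 27.6 and 28.2 CPM under rapamycin, where controls spanned 19.7 to 23. Its log2 fold change was 0.85 (SE 0.0919, adjusted p = 0.000608), and it was higher in all 4 rapamycin mice than in any control. Galnt15, a glycosyltransferase, rose from a mean of 4.86 to 9.23 CPM (0.93, adjusted p = 0.0133), and Cdkn1a, the cyclin-dependent kinase inhibitor p21, rose by 0.89 (adjusted p = 0.0214). Omd, Cdnf and Scml2 also rose, but not with GC content modelled (adjusted p = 0.0807, 0.0639 and 0.0902).

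Of the largest falls without overlap, Top2a, the topoisomerase of dividing cells, measured 1.63, 1.14, 1.13 and 3.48 CPM on day 4 and 0.451, 0.794, 0.476 and 0.894 CPM under rapamycin, where controls spanned 2.02 to 3.26. The log2 fold change was -1.45 (SE 0.37, adjusted p = 0.0266), and the call held in 4 of 8 fits that left out a mouse. Igfbpl1, a marker of immature neurons, rested on day 4 mouse D at 3.78 CPM (log2 fold change -2.01, adjusted p = 0.0332, and 0.0817 without that mouse). Bfsp2, a filament protein best known from the lens, fell by 1.01 (adjusted p = 0.00419). Large2, a glycosyltransferase of dystroglycan, fell by 1.00 (adjusted p = 0.00389), and Hic1, a transcriptional repressor of mesenchymal progenitors, fell by 1.01 (adjusted p = 0.00926). Adamts18 and Drd1 were each highest in day 4 mouse D, at 6.39 and 17.7 CPM, and did not pass with GC content modelled.

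Genes of sterol synthesis and uptake were lower under rapamycin than on day 4, although none of them had been an early change. Of 36 tested, 5 were called lower and none higher. For this list and those below, the background over all genes tested was 0.961% called lower and 0.993% called higher. At an adjusted p alone 16 were lower (background 4.72% higher and 5.06% lower over all genes tested). The median log2 fold change was -0.21 and 35 of the 36 were negative, against a median of 0.00 over all genes tested. Against control 6 were called lower under rapamycin and none higher (median -0.26), where the background was 1.04% lower and 0.372% higher. At an adjusted p alone 20 were lower than control and none higher (background 1.26% higher and 2.31% lower).

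Sqle, the squalene epoxidase, measured 44.2, 48.6, 35.3 and 49.5 CPM on day 4 and 32.2, 29.3, 32.1 and 26.4 CPM under rapamycin (log2 fold change -0.56, SE 0.0992, adjusted p = 0.00558). All 4 rapamycin mice lay below all 4 day 4 mice. Dhcr7, the reductase at the end of the pathway, and Mvd, a decarboxylase of its first steps, fell by 0.54 and 0.57 (adjusted p = 0.00243 and 0.00998). With GC content modelled, Sqle was still called, and 13 of the 36 genes passed on adjusted p alone. In untreated mice Sqle went the other way after day 4, to a mean of 75.7 CPM on day 6 and 115 CPM on day 13.

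Hmgcs1, the synthase at the head of the pathway, is shown for its promoter and was chosen after its values were seen. It had means of 121 ± 14.4 CPM on day 4 and 93.4 ± 9.72 CPM under rapamycin (SD, n = 4 each; log2 fold change -0.36, adjusted p = 0.0218) and 136 CPM in control. RefSeq promoters on GRCm38.p6, 250 bases before to 50 after each gene's start, were searched on both strands for TCACNCCAC, a sterol regulatory element. It was found in 1 of 25 list members with a promoter and in 1.24% of all 32851 promoters. That member was Hmgcs1 (chr13:119690191-119690260, plus strand), with the match, in capitals, 137 bases before the start.
Hmgcs1: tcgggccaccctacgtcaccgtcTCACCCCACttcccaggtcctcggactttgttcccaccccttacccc

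Of 32 genes of the TSC complex and the mTORC1 core, 2 were called lower, Flcn and Rragd, and none higher (background 0.961% and 0.993%). Both act in amino acid sensing at the lysosome, where folliculin is the activating protein for the RRAGC and RRAGD GTPases. Flcn measured 59.7, 62.4, 57.5 and 59.2 CPM on day 4 and 48.0, 42.1, 38.1 and 37.2 CPM under rapamycin, with 42.8 to 46.6 CPM in control. The rapamycin mice lay below the day 4 mice and around the controls (log2 fold change -0.52, SE 0.0723, adjusted p = 0.00171). Rragd measured 125, 125, 112 and 131 CPM on day 4 and 79.2, 89.8, 87.3 and 88.7 CPM under rapamycin, below the controls at 98.3 to 111 as well (log2 fold change -0.50, SE 0.0562, adjusted p = 0.000707). Flcn fell short of the fold threshold with GC content modelled, at -0.42 (adjusted p = 0.00292), and the same fit called 1 member higher, Rps6.

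Lysosomal genes and the TFEB family moved down by small steps. Of 37 tested, Gpnmb alone was called lower, but 18 were lower at an adjusted p alone and none higher, and 30 had a negative log2 fold change (median -0.17). Of the 37, 6 had been higher on day 4 at an adjusted p alone, against 660 of the 25308 genes tested there. Atp6v1b2, a subunit of the proton pump, had means of 336 CPM in control, 403 on day 4 and 320 under rapamycin (log2 fold change -0.32, adjusted p = 0.00395). Mcoln1, the calcium channel of the lysosome, had means of 31.9, 38.6 and 31.7 CPM (log2 fold change -0.27, adjusted p = 0.0143). Both were chosen after their values were seen. With GC content modelled 10 of the 37 passed.

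The letters CACGTG, which the TFEB family binds, occur in the promoters of 12 of 29 lysosomal list members and in 7.15% of all 32851. Mcoln1 (chr8:3500429-3500498, plus strand, GRCm38.p6, RefSeq) is shown as it holds 2 matches, in capitals, 71 and 45 bases before the start. A match is a description and not a site. The same letters occur in 5 of 17 promoters of circadian clock genes, of which none was called.
Mcoln1: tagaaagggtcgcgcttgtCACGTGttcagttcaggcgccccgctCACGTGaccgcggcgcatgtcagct

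Cytosolic ribosomal protein genes rose together by steps below the fold threshold. None of the 46 tested was called, also at an unadjusted p or in DESeq2 with that threshold, but 30 were higher at an adjusted p alone and none lower. Their median log2 fold change was 0.24, with a range of -0.06 to 0.48 and 42 positive. With GC content modelled the median was 0.27 and again 30 were higher. None had changed on day 4, and against control 15 were higher at an adjusted p alone (background 1.26% of 25006 genes tested). Rps6, whose protein is a target of S6 kinase downstream of mTORC1, was not among these 46 and was counted with the mTORC1 genes. It measured 56.7, 55.5, 58.8 and 57.4 CPM on day 4 and 77, 73.5, 73.8 and 73.2 CPM under rapamycin. All 4 rapamycin mice lay above all day 4 mice and all controls, which spanned 59.4 to 60.9 CPM (log2 fold change 0.39, SE 0.0436, adjusted p = 0.000707). With GC content modelled it passed the fold threshold and was called higher (0.55, adjusted p = 0.000148). Untreated day 13 mice had a mean of 74.3 CPM, so the level under the drug was also reached without it by that day.

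Ribosomal protein mRNAs commonly begin with a tract of pyrimidines at the start of transcription, through which mTORC1 controls their translation. A C followed by at least 4 pyrimidines on the transcript strand, beginning within 10 bases of the annotated start, was found for 16 of 33 ribosomal promoters with a sequence (48.5%) and for 30.7% of all 32851. The starts of 4 genes are shown for this feature (RefSeq, GRCm38.p6, from 20 bases before the start, tract in capitals), and all but Rps6 were chosen after their values were seen. Their positions are chr4:86857338-86857387 on the minus strand for Rps6, chr13:90923102-90923151 on the plus strand for Rps23, chr9:120571497-120571546 on the plus strand for Rpl14 and chrX:102189362-102189411 on the minus strand for Rps4x.
Rps6: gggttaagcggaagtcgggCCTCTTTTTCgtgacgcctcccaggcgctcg
Rps23: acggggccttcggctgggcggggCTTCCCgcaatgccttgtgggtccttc
Rpl14: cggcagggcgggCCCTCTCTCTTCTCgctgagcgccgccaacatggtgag
Rps4x: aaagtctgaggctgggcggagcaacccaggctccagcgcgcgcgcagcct
The first 3 hold the tract and Rps4x does not in these letters. Rps23 rose by 0.48 on the log2 scale (SE 0.0526), Rpl14 by 0.32 (SE 0.0435) and Rps4x by 0.38 (SE 0.0483), so the gene without the tract lay between the others.

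Genes of the glucocorticoid response were the list with the most calls upward among the 31 lists examined. Of 20 tested, 4 were called higher (Map3k6, Arrdc2, Hif3a and Cdkn1a) and none lower, 8 were higher and 1 lower at an adjusted p alone, and the median log2 fold change was 0.28. Of the 20, 5 had been early rises (background 0.34% of 25308 genes), and against control 13 were called higher under rapamycin (background 0.372%). Map3k6 was called in all 8 fits that left out a mouse, Hif3a and Cdkn1a in 4 and Arrdc2 in 3 (adjusted p up to 0.0676, 0.0769 and 0.0791), and the last 3 were not called with Ttr as a covariate (adjusted p = 0.0589, 0.0553 and 0.0667). Arrdc2, an arrestin family protein, measured 13.3, 15, 20.7 and 11.6 CPM on day 4 and 22.3, 22.3, 28 and 19.4 CPM under rapamycin (log2 fold change 0.61, SE 0.155, adjusted p = 0.0263). The groups overlapped at day 4 mouse C, the mouse that was highest on day 4 for Plin4, Hif3a, Sgk1 and Cdkn1a too. Tsc22d3, the glucocorticoid-induced leucine zipper, rose below the fold threshold, from 60.9 to 83.6 CPM (0.47, adjusted p = 0.0134), and Fkbp5 did not pass the test, with 67.2 and 74.9 CPM against 49.3 in control (adjusted p = 0.132). The single fall was Per1, with means of 62.6 CPM on day 4, 50.1 under rapamycin and 44.3 in control (adjusted p = 0.0176). These 3 genes were chosen after their values were seen.

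Activity genes and ion channels moved in single members. Of 24 immediate early genes Jun alone was called, at 79.2, 86.4, 74.9 and 75.4 CPM on day 4 and 58.9, 55.4, 42.3 and 48.0 CPM under rapamycin, without overlap and around the control mean of 57.5 (log2 fold change -0.62, SE 0.0862, adjusted p = 0.00177). Of 28 delayed activity genes and neuropeptides Nptx2, a neuronal pentraxin, was called, with means of 18.3 and 11.9 CPM (-0.60, adjusted p = 0.0026), and not with GC content modelled. Of 23 channel and action potential genes that the study singled out on these mice, Kcnj4 and Flna were called, both lower. Kcnj4, an inward rectifier potassium channel, measured 67.7, 78.9, 79.2 and 71.0 CPM on day 4 and 46.5, 47.9, 50 and 41.6 CPM under rapamycin, with 52.6 to 59.5 CPM in control (log2 fold change -0.66, SE 0.0686, adjusted p = 0.000435). Flna, which encodes the actin crosslinker filamin A, measured 192, 206, 198 and 186 CPM on day 4 and 128, 124, 141 and 118 CPM under rapamycin, below the controls at 168 to 181 CPM (log2 fold change -0.61, SE 0.0595, adjusted p = 0.000435).

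Microglial genes were lower under rapamycin, although the transgene is not designed to delete Tsc1 in these cells. All 18 tested had a negative log2 fold change (median -0.25). Called lower were 2 (background 0.961%), Fcrls and Tyrobp, and 5 were lower at an adjusted p alone (background 5.06%). Fcrls, an Fc receptor-like protein of resident microglia, measured 19.2, 16.5, 13.5 and 22.7 CPM on day 4 and 8.67, 9.92, 9.32 and 9.08 CPM under rapamycin. The rapamycin mice lay below the day 4 mice and below the controls, which spanned 21.1 to 25.9 CPM (log2 fold change -0.95, SE 0.128, adjusted p = 0.00163). Tyrobp, a signalling adaptor, had means of 6.98 and 4.73 CPM (-0.55, adjusted p = 0.00722). Summed over the 18 genes, microglial RNA was at 309 to 380 CPM on day 4, 261 to 296 CPM under rapamycin and 365 to 433 CPM in control, so the rapamycin mice lay below both other groups.

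Of 17 genes of precursors and newly formed oligodendrocytes Gpr17 and Enpp6 were called lower (background 0.961%). Enpp6, a choline phosphodiesterase of newly formed oligodendrocytes, measured 8.61, 9.43, 10.5 and 12.5 CPM on day 4 and 3.61, 5.36, 4.84 and 7.52 CPM under rapamycin, below the controls at 9.71 to 16.2 (log2 fold change -0.92, SE 0.178, adjusted p = 0.00799). The summed precursor markers were at 1105 to 1203 CPM on day 4 and 1005 to 1099 CPM under rapamycin, and the summed myelin markers at 4199 to 4727 and 3291 to 4460 CPM, which overlapped.

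In vessels, Kdr, the endothelial VEGF receptor, measured 21, 18.5, 16.4 and 21 CPM on day 4 and 12.2, 12.8, 11.2 and 11.9 CPM under rapamycin, with 21.4 to 34.1 CPM in control (log2 fold change -0.67, SE 0.0833, adjusted p = 0.00114). Of 21 endothelial, pericyte and smooth muscle genes Kdr, Acta2 and Myh11 were called lower and none higher (background 0.961% and 0.993%). Of 32 collagens, laminins and matrix proteases, 6 were called lower and none higher (median log2 fold change -0.32), and 1 with GC content modelled. That gene, Mmp15, a membrane-bound metalloproteinase, measured 21.2, 19.2, 16.4 and 16.8 CPM on day 4 and 9.37, 9.59, 10.8 and 9.61 CPM under rapamycin, with 14.8 to 23.1 CPM in control (log2 fold change -0.89, SE 0.0904, adjusted p = 0.000435). Col1a1 and Col18a1 fell by 0.81 and 0.75, while the summed fibroblast markers overlapped between the groups, at 247 to 475 CPM on day 4 and 181 to 352 CPM under rapamycin. The summed choroid plexus markers were lower in 3 of the 4 rapamycin mice than in 3 of the 4 day 4 mice, as given above. In the fit with Ttr as a covariate 3 of the 32 matrix genes were called, and Mmp15, Kdr and Acta2 still passed (adjusted p = 0.0025, 0.0064 and 0.00511). The part of fibroblast tissue in these falls was not tested.

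Gfap, the filament protein of astrocytes, measured 175, 166, 143 and 233 CPM on day 4 and 102, 114, 104 and 124 CPM under rapamycin, below the controls at 163 to 210 (log2 fold change -0.68, SE 0.117, adjusted p = 0.00458). Osmr, the oncostatin M receptor, was the one reactive astrocyte gene of 21 that was called higher (0.70, adjusted p = 0.0219). The summed markers of astrocytes were at 7810 to 8183 CPM on day 4 and 7536 to 7808 CPM under rapamycin. Those of excitatory neurons were at 4289 to 4906 and 3356 to 4435 CPM, and those of interneurons at 1196 to 1286 and 1117 to 1361 CPM, both with overlap.

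Other lists had few or no calls between rapamycin and day 4. Of 30 ATF4 and amino acid response genes none was called, also at an unadjusted p and in DESeq2 with the fold threshold, and 8 were lower at an adjusted p alone (median -0.22). Of 28 genes of the unfolded protein response Sdf2l1 was called, lower by 0.76 (adjusted p = 0.00627). Of 18 MHC genes none was called by edgeR, DESeq2 or at an unadjusted p with the fold threshold. Under rapamycin 6 of the MHC genes were called lower against control (median -0.50, background 1.04%). On day 4 their median against control was already -0.32, with 1 called lower. Of 35 interferon-stimulated genes Iigp1 was called higher, though not with GC content modelled, while 24 had a negative log2 fold change (median -0.16). Against control 6 genes of this list were called lower under rapamycin and none higher (median -0.41, background 1.04% lower). The list was already low against control on day 4, with 2 called lower and a median of -0.36. The cell cycle list of 29 had Ccne2 higher (0.67, adjusted p = 0.00574, not called with GC content modelled) and Top2a lower, and the neurogenesis list of 25 had 2 lower, among them Igfbpl1, neither with GC content modelled.

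**Figure D4:**
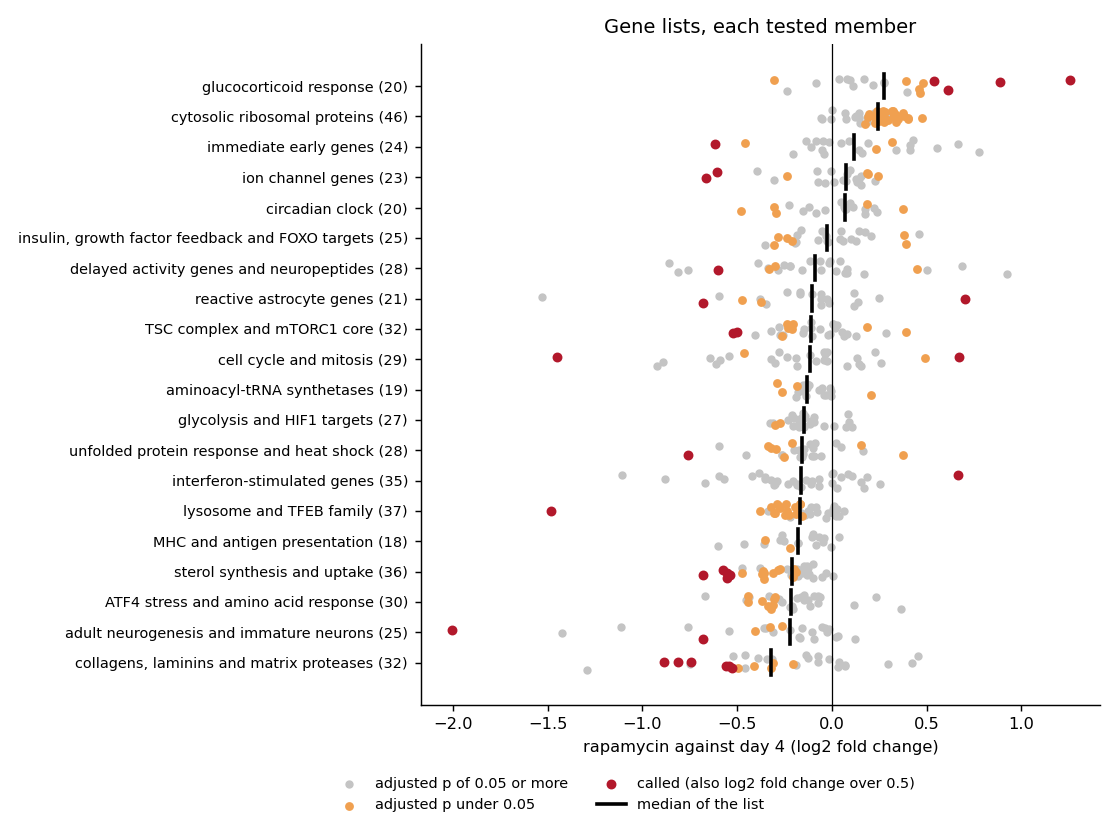
Log2 fold change of rapamycin against day 4 (x axis) for each tested member of 20 gene lists (rows, number tested in parentheses), with the list's median as a bar; red dots were called and orange dots had an adjusted p under 0.05 alone. The ribosomal protein genes sit to the right of 0 with a median of 0.24, and the sterol, lysosome and matrix genes to its left with medians of -0.21, -0.17 and -0.32.

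The fold changes moved with the base composition of the transcripts. Across 15788 protein-coding genes, which are not independent replicates, the Spearman correlation of the log2 fold change with GC content was -0.462. It was 0.347 for day 4 against control and -0.228 for rapamycin against control. The median GC content was 46.0% for genes called higher, 55.6% for those called lower and 49.9% for those tested. Among the early changes, undone rises had a median GC content of 56.1% and undone falls of 45.1%. A fit with offsets for GC content in each mouse brought the correlation to -0.016 and called 234 genes, of which 207 were among the 492. With it, 24 of the 44 undone genes were still early changes and 16 of them undone, and 28 of the 36 kept genes were still early changes and 26 of them kept. Gpnmb, BC030499, Spag5, Ackr2, Serpinb8, Plekhg4, Map3k6, Sqle and Fcrls were called against day 4 in both fits.

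**Figure D5:**
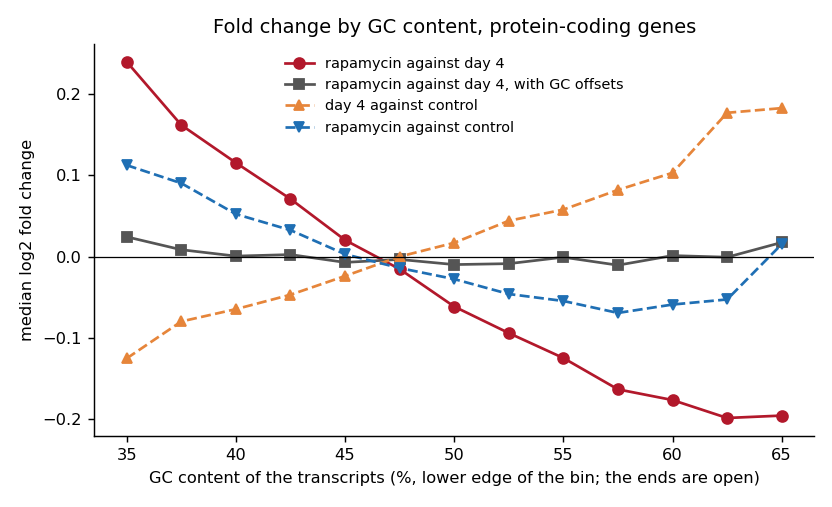
Median log2 fold change (y axis) of protein-coding genes in bins of transcript GC content (x axis, lower edge of the bin, per cent), for rapamycin against day 4 with and without GC offsets and for day 4 and rapamycin against control. Rapamycin against day 4 runs from 0.24 in the lowest bin to -0.20 in the highest and is flat with the offsets, and day 4 against control runs the opposite way.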

How the data were processed

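The authors trimmed reads with cutadapt 1.16.5, aligned them with STAR 2.7.2b to mm10 (GRCm38) and counted them per GENCODE gene with featureCounts 1.6.4 (versions from the submitters' processing notes). They deposited whole read counts per gene without normalization, 1 library per mouse. The libraries were stranded and rRNA-depleted, but the strand and multimapping settings of the counting are not given in the sources used here. Gene names come from GENCODE M21.

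Counts were tested with edgeR 4.0.16 (quasi-likelihood, filterByExpr, TMM, R 4.3.3) on the 8 mice of each comparison, with Benjamini-Hochberg adjustment over all genes tested; the steps were tested on simulated data. SE is that of the log2 fold change. GC offsets came from a lowess curve (span 0.3) in each mouse. The alternatives used DESeq2 1.42.0, other samples, filters, covariates and thresholds, and thinned counts. Values per mouse are named A to D by the sample titles; the labels give 24 separate mice. The letters did not pair the mice (correlations of deviations -0.24, -0.05, -0.12 and -0.36).

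Named genes were the 12 largest protein-coding rises and falls without overlap, with a mean of at least 1 CPM, up to 6 genes of each class, up to 4 called genes of each list, and Tsc1, Tsc2, Mtor, Rps6, Camk2a and Esr1. Comparisons, gene lists and thresholds were chosen with earlier results of these data known. Some genes that this rule names are not reported here.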

Additional observations from a re-analysis of the deposited data

Results flagged for a closer look

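Within a group of 4 mice, 11 of the 156 sets of values examined had a highest or lowest mouse set far apart from the other 3. Chance flags about 1 in 20 groups. In the rapamycin group the highest mouse stood apart for Bfsp2 at 1.81 CPM, for Mmp15 at 10.8 CPM and for Scml2 at 1.91 CPM. The same held for the summed markers of fibroblasts and meninges at 352 CPM and of choroid plexus and ependyma at 902 CPM, both in rapamycin mouse C. In the day 4 group the highest mouse stood apart for Adamts18 at 6.39 CPM (mouse D), for Sgk1 at 156 CPM (mouse C) and for the summed thalamic markers at 371 CPM (mouse A). The lowest day 4 mouse stood apart for Dhcr7 at 15.6 CPM (mouse C), for Gjb1 at 6.16 CPM (mouse B) and for Slc9a5 at 12.8 CPM (mouse D). For Bfsp2, Mmp15, Dhcr7, Slc9a5 and Sgk1 the mouse that stood apart was the one nearest to the other group, and for Scml2 and Adamts18 it was the one farthest from it. The groups did not overlap for any of these genes except Gjb1.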

How the results depend on the processing

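No named gene changed direction between rapamycin and day 4 under any alternative. Of the 492 genes called between rapamycin and day 4, 59 were called under all 11 other fits. That count was 244 with 1 spread over 24 mice, 234 with GC offsets, 290 with the Ttr level as a covariate and 125 with GC offsets and the replicate block. The replicate block alone, which treats equal letters as pairs although the letters did not pair the mice, called 353, with 35 early changes undone and 34 kept. The 172 early changes became 29 in edgeR and 70 in DESeq2 on 24 mice, 107 with Xist as a covariate and 100 with GC offsets and block. The 44 undone became 7 and 21 in those edgeR and DESeq2 fits, 20 with GC offsets and 18 with GC offsets and block. The 36 kept became 13 and 19 in those fits, 59 in DESeq2 on the mice of each comparison, 63 without the filter on low counts and 19 with Xist. With 24 mice edgeR called 162 genes between rapamycin and control, 744 between rapamycin and day 6 and 84 between day 6 and control, which was 132 in DESeq2 and 195 with Xist. The cause of these shifts was not tested.

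With no fold minimum the counts were 2464 for rapamycin against day 4, 1054 early, 479 undone, 125 kept and 19 overshot, 892 against control, 4405 against day 6, 2519 for day 6 against control and 6234 for day 13 against day 4. With a log2 fold change over 1 they were 86, 35, 8 and 10 up to kept, then 83, 264, 86 and 1249.

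Leaving out 1 mouse at a time gave 285 to 519 genes for rapamycin against day 4, 83 to 211 early, 22 to 49 undone, 17 to 53 kept, 0 to 1 overshot, 0 to 1 partly undone and 0 to 5 grown. The others ranged over 235 to 348 against control, 866 to 1142 against day 6, 217 to 429 for day 6 against control and 2073 to 4924 for day 13 against day 4. Rapamycin against day 4 gave 298 without day 4 mouse A and 285 without mouse B. Early changes numbered 83 without control D (22 undone, 18 kept), 84 without day 4 B (27 and 17) and 107 without day 4 C (18 kept). Day 6 against control gave 217 without day 6 C. Day 13 against day 4 gave 2414 without day 13 B and 2232, 2168 and 2073 without day 4 A, B and C. The overshot gene appeared without rapamycin B. All alternatives for the partly undone and grown classes, rapamycin against day 6, day 6 against control and day 13 against day 4 were chosen after seeing the data. Small differences of genes near 1 CPM cannot be shown at these depths.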
